A study of Arabidopsis thaliana with 12 samples.

Results

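The genes described here encode the proteins of the cytosolic ribosome of Arabidopsis. They are the 221 of 32954 genes in the expression table whose description names a 40S ribosomal protein, a 60S ribosomal protein or a 60S acidic ribosomal protein. By these descriptions 95 belong to the small (40S) subunit, 114 to the large (60S) subunit and 12 to the acidic proteins that form the stalk of the large subunit. The rule used the wording of the annotation and no measured value. Both genes of the large-subunit protein L5 lie outside it because their description does not contain "60S". Any other gene described without these words is left out too, so that a family may lack paralogs. Of the members, 3 are described as proteins of organelles and 3 are gene models without a name.

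Messenger RNA was measured by sequencing in leaves of plants in the Col-0 background, with 4 libraries of each of 3 genotypes. The overexpressor is 1 line that carries a cDNA of the plastidic glucose transporter pGlcT2 (*At1g05030*) behind the constitutive 35S promoter. The paper's results say that it was made in the *glct2* background, so that it would also hold the T-DNA. The paper's methods name this background only for a line used for complementation. The mutant *glct2* is 1 T-DNA line with the insertion in an intron of *pGlcT2*. The wild type is Col-0 with neither change. All sequenced plants grew for 24 days in short days and then for 10 to 12 days in continuous light of 100 to 120 µmol quanta. No group without this light change was sequenced, although the study also grew short-day control plants of the same age.

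The levels are FPKM, fragments scaled to gene length and library size, as the authors computed them. Between 17448191 and 22477845 reads stood behind the genes of an overexpressor library, 18471068 to 22418179 behind *glct2* and 19035449 to 24276381 behind wild type. The transporter checked the labels, with 193, 180.3, 215 and 237 FPKM in overexpressor leaves, 2.65, 3.00, 3.89 and 2.83 FPKM in *glct2* leaves and 9.39, 10.1, 8.26 and 9.48 FPKM in wild-type leaves. The genotypes did not overlap in it. Marker genes of leaf mesophyll were high in every library, and the summed level of 5 of them was 7992 to 12202 FPKM in the overexpressor, 9939 to 15903 in *glct2* and 13206 to 19862 in wild type. Of 4 root markers, *CASP1*, *COBL9* and *WER* stayed below 1 FPKM on average in each genotype, and the list summed to 5.09 to 9.19 FPKM in the overexpressor, 8.26 to 18.8 in *glct2* and 6.87 to 12.6 in wild type. The remaining gene, *PYK10*, was called in neither genotype against wild type and was called lower in the overexpressor than in *glct2*, by a log2 fold change of -0.94 (limma adjusted p = 0.0112). The summed level of 5 markers of flower organs was 2.19 to 6.77 FPKM in the overexpressor, 1.65 to 3.35 in *glct2* and 1.26 to 2.62 in wild type.

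An 80S ribosome is assembled from a 40S subunit, which binds the messenger RNA and decodes it, and a 60S subunit, which forms the peptide bond and releases the chain through an exit tunnel. In plants each ribosomal protein is encoded by a small family of paralogous genes on several chromosomes, and the subunits are built in the nucleolus with the help of assembly factors. The genes for these proteins are known to be regulated by sugars, by light and through the TOR kinase. The chloroplast has a bacterial type of ribosome of its own, with 30S and 50S subunits, whose proteins are not among the members.

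Of the 221 members, 198 had at least 1 FPKM in at least 4 libraries and were tested, and 9 were listed at 0 in every library. The mean level of a tested member over all libraries ran up to 459 FPKM, with a median of 106 FPKM, and 104 of them averaged at least 100 FPKM. The 23 members that were not tested lay at or near 0, among them *RPS27AA*, *RPL27AB*, *RPL37AB* and *RPS23A*. Several of them are close copies of a member with a high level, and how reads shared by such copies were assigned is not given in the sources used here. The named cytosolic members fell into 79 protein families by description, and 69 families had at least 2 tested paralogs.

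Both genotypes with a changed *pGlcT2* level had more message for cytosolic ribosomal proteins than wild type in their means, by a small factor that spread over nearly the whole set. The summed level of all members was 26722, 26434, 23054 and 21000.1 FPKM in the overexpressor, 24434, 24357, 25816 and 24506 FPKM in *glct2* and 21358, 17954, 22929 and 19341 FPKM in wild type. The means were 24303 ± 2761, 24778 ± 695 and 20395 ± 2192 FPKM in the same genotypes (SD, n = 4 each), which is 1.19 and 1.21 times wild type. Every *glct2* library lay above every wild-type library. Overexpressor libraries 1 to 3 also lay above every wild-type library, and library 4 lay below wild-type libraries 1 and 3.

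As a share of all reads assigned to genes, the members took 2.15 to 2.80% in the overexpressor, 2.45 to 2.73% in *glct2* and 1.78 to 2.14% in wild type. The 40S members summed to 10144 ± 1079, 10315 ± 208 and 8602 ± 891 FPKM, the 60S members to 13022 ± 1563, 13306 ± 471 and 10879 ± 1185 FPKM, and the stalk members to 1137 ± 119.8, 1157 ± 23.6 and 915 ± 117 FPKM in overexpressor, *glct2* and wild type (SD, n = 4 each). The 60S sum was 1.26 to 1.299 times the 40S sum in overexpressor libraries, 1.27 to 1.32 times in *glct2* and 1.25 to 1.27 times in wild type. The 2 subunits thus moved by almost the same factor, 1.18 and 1.20 in the overexpressor and 1.20 and 1.22 in *glct2*. In leaf tissue, a larger share of cells that make these messages and more message per cell cannot be told apart.

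**Figure D1:**
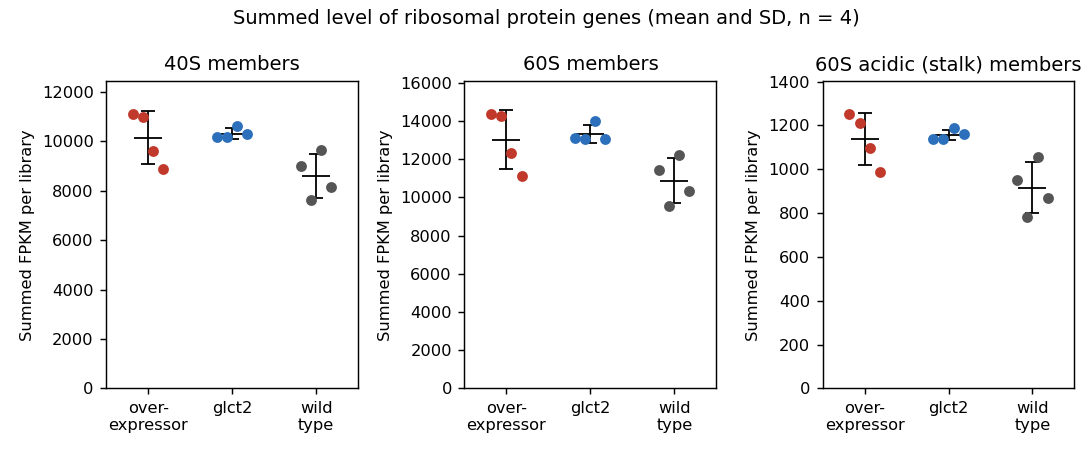
Summed FPKM of the 40S, 60S and stalk members in each library of the overexpressor, *glct2* and wild type, with points for libraries and bars for mean and SD (n = 4). The 4 *glct2* libraries lie close together and above all wild-type libraries, while the overexpressor spreads from 21000.1 to 26722 FPKM over all members and overlaps with wild type.

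The members moved together from library to library. The median member stood 0.38, 0.39, 0.17 and 0.05 above its wild-type mean in overexpressor libraries 1 to 4 on the log2(FPKM + 1) scale, 0.26, 0.27, 0.35 and 0.27 above it in *glct2* libraries, and at 0.07, -0.18, 0.17 and -0.07 in the wild-type libraries themselves. Among the 198 tested members, 129 to 192 lay above their wild-type mean in an overexpressor library and 190 to 193 did so in a *glct2* library. The counts in wild-type libraries were 178, 11, 191 and 22. The median of all tested genes stayed within 0.01 of 0 in each of these libraries, and the members thus shifted together in the wild-type libraries too.

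**Figure D2:**
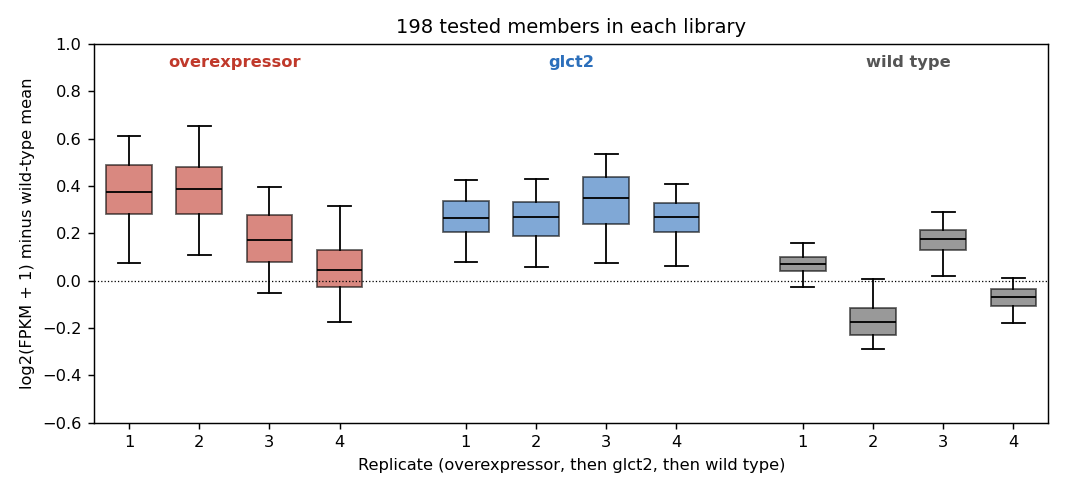
Deviation of the 198 tested members from their own wild-type mean in log2(FPKM + 1), for each library of the overexpressor, *glct2* and wild type. Lines are medians, boxes hold the middle 50% of members and whiskers run from the 5th to the 95th percentile, and the medians range from 0.05 to 0.39 in the overexpressor, from 0.26 to 0.35 in *glct2* and from -0.18 to 0.17 in wild type.

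Overexpressor against wild type, 81 of the 198 tested members were called higher and 1 was called lower by limma with Benjamini-Hochberg adjustment over all 18354 tested genes. This is 40.9% of the members, where 18.7% of all tested genes were called higher, and 0.505% lower, where 19.9% of all tested genes were. The log2 fold change was positive for 188 members, 94.9%, against 50.6% of all tested genes, and its median was 0.25 against 0.00 over all tested genes. In 32 members, 16.2%, the overexpressor libraries all lay above the wild-type libraries, and 15.9% of all tested genes did so, which is near the background. The number of calls changed with the libraries used. It was 40 and 49 without overexpressor library 1 or 2 and 41 and 42 without wild-type library 2 or 4, and it was 120 without overexpressor library 4 and 105 without wild-type library 3.

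In *glct2* against wild type the shift was of similar size and more even, but fewer members passed the test. By the same limma fit 23 members were called higher, 11.6% of the tested ones, where 1.95% of all tested genes were called higher. None was called lower, with none also at an unadjusted p under 0.05 and none by limma voom on recovered reads, where the fit called 2.62% of all tested genes lower. The median log2 fold change was 0.29, 192 members, 97.0%, were positive against 50.4% of all tested genes, and 148 were higher at an unadjusted p under 0.05. In 123 members, 62.1%, the *glct2* libraries all lay above the wild-type libraries, against a background of 7.5%, and in none did they all lie below, against 9.43%.

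The number of *glct2* calls changed strongly with the libraries used. It was 2, 3, 1 and 2 without *glct2* library 1, 2, 3 or 4, and 2, 2, 38 and 1 without wild-type library 1, 2, 3 or 4. It also moved when a library of the overexpressor, which shares the estimate of the spread, was left out, to 11 without library 1, 8 without library 3 and 48 without library 4. The median log2 fold change stayed between 0.23 and 0.35 in these fits.

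The direct comparison of the overexpressor with *glct2* left few members apart. By limma 6 members were called higher and 4 lower, 3.03% and 2.02% of those tested, where 15.9% and 17.7% of all tested genes were called. The median log2 fold change of the members was -0.03. Without overexpressor library 4 it was 0.03 and 11 members were called higher. Both comparisons against wild type share the 4 wild-type libraries, so that their agreement in sign is not independent.

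**Figure D3:**
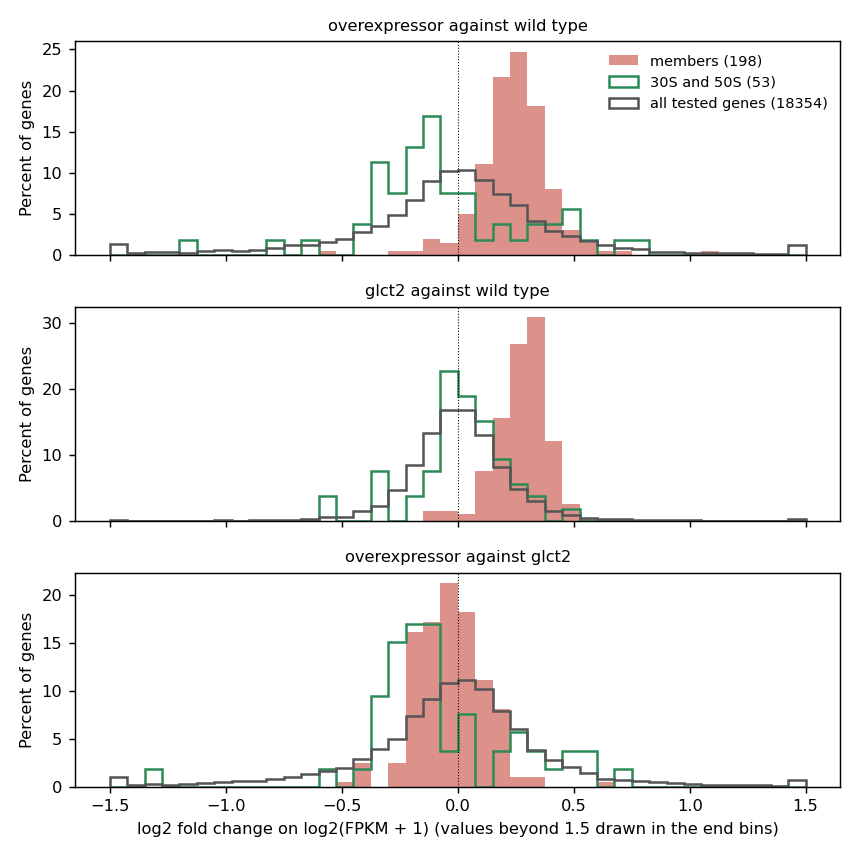
Share of genes, in percent, by log2 fold change on the log2(FPKM + 1) scale for the 198 tested members (filled), the 53 tested 30S and 50S proteins of the chloroplast type (green line) and all 18354 tested genes (grey line), in the 3 comparisons. The members centre on 0.25 in the overexpressor and 0.29 in *glct2* against wild type and on -0.03 between these genotypes, while all tested genes centre on 0.00.

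The proteins of the bacterial-type ribosome did not show this shift. Of 66 genes described as 30S or 50S ribosomal proteins 53 were tested, and their median log2 fold change was -0.13 in the overexpressor and 0.02 in *glct2* against wild type. By limma 5 were called higher and 4 lower in the overexpressor, 9.43% and 7.55%, where 18.7% and 19.9% of all tested genes were. In *glct2* none was called, where only 1.95% of all tested genes were called higher and 2.62% lower, so that few calls could be looked for among 53. An unadjusted p under 0.05 was reached there by 6 with a higher and 2 with a lower level (the limma voom fit was not summarized for this list). The 3 members with a mitochondrial description had log2 fold changes of 0.09 to 0.20 in the overexpressor and of -0.12 to 0.10 in *glct2*. Without them and the unnamed models the medians of the members were 0.25 and 0.29.

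The largest rise of any member was that of *RPS9C* (*At5g39850*, chr5:15949910-15951475, plus strand, TAIR10), 1 of 2 genes for S9, a protein of the small-subunit body. It had 38.7, 31.6, 33.8 and 24.2 FPKM in the overexpressor, 20.6, 18.8, 26.2 and 16.8 FPKM in *glct2* and 18.5, 15.6, 14.2 and 11.2 FPKM in wild type. The overexpressor libraries all lay above wild type and overlapped with 1 library of *glct2*. Its log2 fold change was 1.06 ± 0.17 (SE, limma adjusted p = 0.000461) against wild type and 0.61 ± 0.17 (adjusted p = 0.0158) against *glct2*. In *glct2* against wild type it was 0.45 ± 0.17 and missed the threshold (adjusted p = 0.146).

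The sister gene *RPS9B* (*At5g15200*), which gives most of the S9 message, averaged 275 ± 35.3 FPKM in the overexpressor, 257 ± 8.85 in *glct2* and 227 ± 24.6 in wild type (SD, n = 4 each). Its log2 fold change of 0.28 in the overexpressor missed the threshold (limma adjusted p = 0.0515). The share of *RPS9C* in the summed S9 level was 11.3, 9.38, 11.9 and 9.18% in the overexpressor, 7.44 ± 1.61% in *glct2* (SD, n = 4) and 7.26, 7.22, 5.25 and 4.97% in wild type. The overexpressor shares all exceeded those of wild type and overlapped with *glct2*.

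*RPL36A* (*At2g37600*, chr2:15774030-15775374, minus strand), 1 of the genes for the large-subunit protein L36, followed with a log2 fold change of 0.72 ± 0.12 (SE, limma adjusted p = 0.000649). It had 59.0, 55.5, 49.1 and 40.7 FPKM in the overexpressor, 41.4, 43.2, 47.4 and 41.2 FPKM in *glct2* and 32.5, 25.99, 36.2 and 27.6 FPKM in wild type. Both genotypes lay above all wild-type libraries, and *RPL36A* was also called in *glct2*, with a log2 fold change of 0.50 ± 0.12 (adjusted p = 0.0406) that lost the call without any 1 of the *glct2* libraries, without wild-type library 1, 2 or 4, without overexpressor library 3 and with no filter on low values.

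*RPS25B* (*At2g21580*, chr2:9236481-9237846, plus strand) had the smallest p of the members named here in the overexpressor. It encodes S25, which lies on the head of the small subunit near the exit site of transfer RNA. It had 162, 154, 148 and 154 FPKM in the overexpressor, 123, 117, 115 and 125 FPKM in *glct2* and 102, 94.5, 106 and 92.2 FPKM in wild type. The 3 genotypes did not overlap in any pair. The log2 fold change was 0.64 ± 0.06 (SE, limma adjusted p = 1.46e-05) against wild type and 0.36 ± 0.06 (adjusted p = 0.00111) against *glct2*, and 0.28 ± 0.06 (adjusted p = 0.0318) in *glct2* against wild type. In this last comparison the call was lost with the replicate number as a block, without any 1 of the *glct2* libraries and without wild-type library 1, 2 or 4.

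The other S25 genes gave a different picture. *RPS25E* (*At4g39200*), the most expressed, averaged 193 ± 24.3 FPKM in the overexpressor, 215 ± 9.81 in *glct2* and 187 ± 16.8 in wild type, with log2 fold changes of 0.04 and 0.20 against wild type that were not called. *RPS25D* averaged 25.1 ± 2.44, 20.8 ± 2.56 and 18.7 ± 1.17 FPKM in these genotypes and rose in the overexpressor by 0.41 ± 0.09 (SE, limma adjusted p = 0.00402). With these levels *RPS25B* made up 41.6 ± 2.45% of the S25 message in the overexpressor, 33.7% in *glct2* and 32.4 ± 1.13% in wild type.

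The bases before the annotated starts of these genes are shown because plant ribosomal protein genes are known for 2 short promoter elements, the telo box (AAACCCTA) and the site II element (TGGGCC or TGGGCT), and because the members that stood out hold them unequally. The sequences are 250 bases up to the base before the annotated start, from the reference TAIR10.1 of RefSeq, whose gene starts and ends are those of the table for all 218 members found there. Each is given 5′ to 3′ on the strand of the gene, and capitals mark a telo box or site II element on either strand.
RPS9C, chr5:15949660-15949909: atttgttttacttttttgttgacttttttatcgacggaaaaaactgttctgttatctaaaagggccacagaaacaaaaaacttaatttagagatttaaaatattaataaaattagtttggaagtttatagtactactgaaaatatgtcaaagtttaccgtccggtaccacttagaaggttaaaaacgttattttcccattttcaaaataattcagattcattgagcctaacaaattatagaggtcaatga
RPS9B, chr5:4936430-4936679, minus strand: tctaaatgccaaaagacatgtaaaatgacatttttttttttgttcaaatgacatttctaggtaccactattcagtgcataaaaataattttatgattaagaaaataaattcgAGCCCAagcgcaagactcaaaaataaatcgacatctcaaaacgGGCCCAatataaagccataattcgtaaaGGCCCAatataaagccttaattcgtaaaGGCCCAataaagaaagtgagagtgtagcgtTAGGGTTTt
RPS25B, chr2:9236231-9236480: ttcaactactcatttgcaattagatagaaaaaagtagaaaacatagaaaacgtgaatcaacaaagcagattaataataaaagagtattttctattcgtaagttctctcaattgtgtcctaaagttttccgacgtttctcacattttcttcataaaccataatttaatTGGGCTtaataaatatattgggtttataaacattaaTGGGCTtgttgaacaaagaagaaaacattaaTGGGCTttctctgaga
RPS25E, chr4:18257084-18257333: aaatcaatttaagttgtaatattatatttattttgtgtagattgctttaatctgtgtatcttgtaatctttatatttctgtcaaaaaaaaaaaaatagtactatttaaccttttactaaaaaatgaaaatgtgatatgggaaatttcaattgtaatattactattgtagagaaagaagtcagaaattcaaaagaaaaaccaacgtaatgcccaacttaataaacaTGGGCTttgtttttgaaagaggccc
RPL36A, chr2:15775375-15775624, minus strand: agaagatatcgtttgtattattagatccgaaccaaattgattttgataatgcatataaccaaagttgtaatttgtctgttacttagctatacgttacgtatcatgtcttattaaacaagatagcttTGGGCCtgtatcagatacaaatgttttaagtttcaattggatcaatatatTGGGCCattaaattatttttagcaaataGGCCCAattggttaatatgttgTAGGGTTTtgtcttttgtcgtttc

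No such element was found in these bases before *RPS9C*, while those before *RPS9B* held 3 TGGGCC, 1 TGGGCT and 1 telo box. Before *RPL36A* stood 3 TGGGCC and 1 telo box, before *RPS25B* 3 TGGGCT and before *RPS25E* 1 TGGGCT. The 50 bases from the start on, which are not printed, added 1 TGGGCC and 1 TGGGCT in *RPS9C* and 1 telo box each in *RPS25B* and *RPS25E*, and none in *RPS9B* and *RPL36A*. In windows of 250 bases before to 50 bases after the annotated start, counting both strands, 49.1% of 218 member promoters held a telo box and 74.3% a site II element. Over 27443 promoters of protein-coding genes the shares were 6.22% and 21.7%. In the 250 bases before the start alone, the members held a telo box in 21.6% and a site II element in 67.4%, against 4.49% and 19.2% of all these genes. TGGGCC and TGGGCT do not overlap with the telo box in sequence, but TGGGCC followed by CA is counted on both strands, at overlapping positions.

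Members with and without a call were set side by side for these elements. In the windows that run to 50 bases after the start, a site II element was found in 55 of the 81 members called higher in the overexpressor, 67.9%, and in 92 of 115 tested members with no call, 80.0%, and a telo box in 45.7% of the called and 48.7% of the other members. In the 250 bases before the start alone, site II was found in 58.0% of the called and 73.9% of the other members and the telo box in 17.3% and 18.3%. For the 23 members called in *glct2* and the tested members with no call there, the longer windows gave 73.9% and 75.1% for site II and 52.2% and 46.8% for the telo box. The 250 bases alone gave 69.6% and 67.1% for site II, and for the telo box 4.35% of the called and 19.7% of the other members, so that both directions depend on the window. These shares are descriptions, and a match does not show that a site is used.

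**Figure D4:**
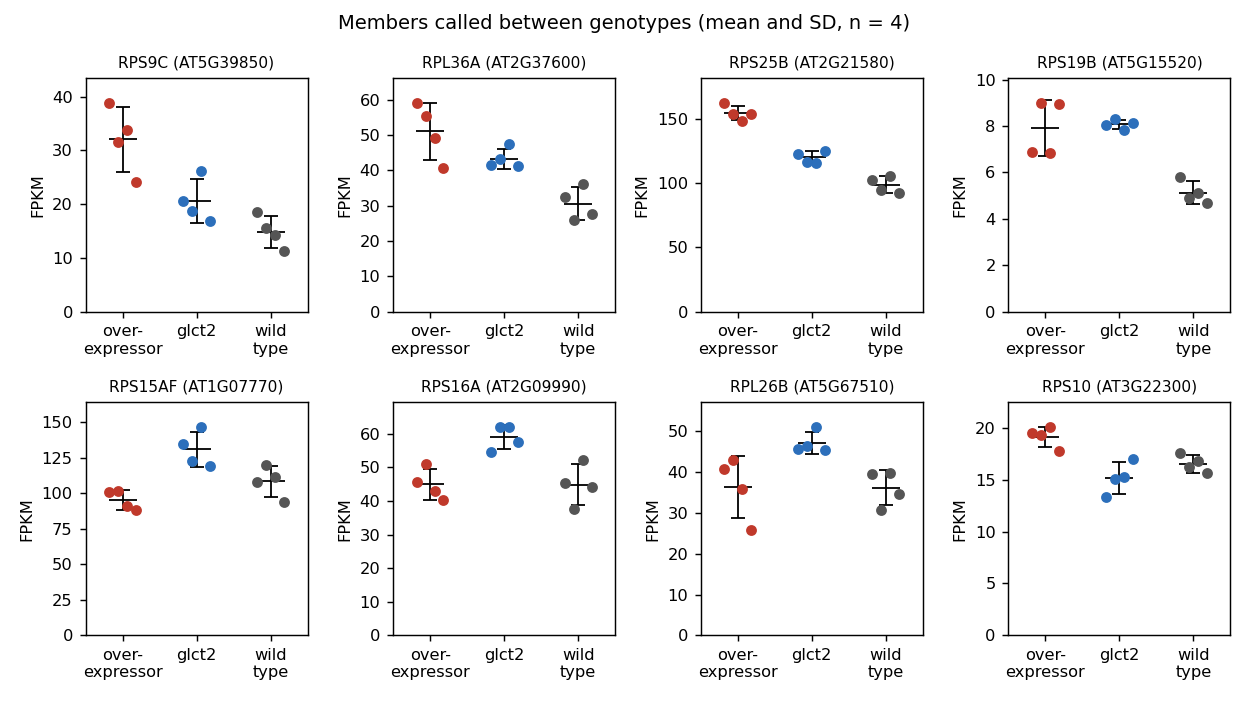
FPKM of 8 members in each library of the overexpressor, *glct2* and wild type, with points for libraries and bars for mean and SD (n = 4). *RPS25B* separates all 3 genotypes, *RPS19B* separates both genotypes from wild type, and *RPS15AF*, *RPS16A* and *RPL26B* lie lower in the overexpressor than in *glct2* without overlap.

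Further proteins of the small subunit were led by *RPS19B* (*At5g15520*), 1 of the less expressed genes for S19. It had 6.90, 8.98, 6.86 and 8.95 FPKM in the overexpressor, 8.04, 8.31, 7.85 and 8.13 FPKM in *glct2* and 5.83, 4.90, 5.12 and 4.69 FPKM in wild type. Both genotypes lay above all wild types. The log2 fold changes were 0.53 ± 0.09 (SE, limma adjusted p = 0.000786) and 0.57 ± 0.09 (adjusted p = 0.00702), the highest among the members in *glct2*. This was the one named member whose *glct2* call held in all 24 alternatives.

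Of the S5 genes, which take part in initiation at the exit side of the mRNA channel, *RPS5A* rose in the overexpressor by 0.36 ± 0.08 (SE, limma adjusted p = 0.00487), with 95.8 ± 9.13 FPKM in the overexpressor and 74.3 ± 7.27 in wild type (SD, n = 4 each). *RPS5B*, at 209 ± 21.8 and 195 ± 14.3 FPKM in these genotypes, had a log2 fold change of 0.10 and was not called. The S6 genes, whose protein is phosphorylated below TOR, were not called in either genotype. *RPS6A* averaged 161 ± 27.6, 163 ± 3.98 and 133 ± 13.0 FPKM and *RPS6B* 233 ± 19.3, 252 ± 10.3 and 209 ± 15.9 FPKM in overexpressor, *glct2* and wild type.

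*RPS18C* (*At1g22780*), a gene for S18 at the small-subunit head whose mutants are known for pointed leaves (3 members carry this name in the table), rose by 0.28 ± 0.09 in the overexpressor (SE, limma adjusted p = 0.0344). In *glct2* the rise was 0.40 ± 0.09 (adjusted p = 0.0393). Its levels were 114 ± 11.2, 123 ± 3.26 and 93.8 ± 11.9 FPKM in overexpressor, *glct2* and wild type. *RPS24A* rose by 0.40 ± 0.11 in the overexpressor and by 0.43 ± 0.11 in *glct2* (adjusted p = 0.0116 and 0.0441). The ubiquitin fusion *RPS27AC*, whose product is cut into ubiquitin and S27a, had log2 fold changes of 0.24 and 0.21 that were not called. *RPS23B*, nearly the whole message for the decoding-site protein S23, rose by 0.34 in the overexpressor (adjusted p = 0.0213) and had 0.26 in *glct2*, which was not called.

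By subunit, 37 of 85 tested 40S members, 38 of 104 60S members and 6 of 9 stalk members were called higher in the overexpressor by limma, and 11, 11 and 1 in *glct2*, where 18.7% and 1.95% of all tested genes were called higher in these genotypes. By mean level, the median log2 fold change was 0.20 below 20 FPKM, 0.26 from 20 to 100 FPKM and 0.24 above in the overexpressor and 0.22, 0.32 and 0.28 in *glct2*. Grouped by place on the ribosome, members were called higher in the overexpressor in 4 of 9 at the mRNA exit side, 3 of 10 at the mRNA entry channel and 3 of 12 at the small-subunit head and beak. In the large subunit the counts were 8 of 16 for the GTPase-associated centre and stalk, 7 of 20 for the exit tunnel and its rim, 3 of 5 for the peptidyl transferase side and 3 of 4 for L11 of the 5S particle. With so few genes in each, shares such as 3 of 10 or 3 of 12 lie near the 18.7% of all tested genes. Between these groups the median log2 fold change ran from 0.20 to 0.34 in the overexpressor and from 0.24 to 0.34 in *glct2*, beside 0.25 and 0.29 over all members.

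In the large subunit *RPL7AB* (*At3g62870*), a gene for L7a, had 315, 284, 276 and 231 FPKM in the overexpressor, 236, 232, 264 and 238 FPKM in *glct2* and 196, 174, 206 and 168 FPKM in wild type. The wild types lay below both genotypes without overlap. The overexpressor had a log2 fold change of 0.57 ± 0.10 (SE, limma adjusted p = 0.000979). That of *glct2*, 0.38 ± 0.10, was not called (adjusted p = 0.0529). L7a was also the family with the highest summed rise in the overexpressor, 1.37 times wild type.

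*RPL13AC* and *RPL11A*, genes for L13a and for L11, which joins the 5S particle, rose in the overexpressor by 0.50 and 0.48 (limma adjusted p = 0.00282 and 0.00309). *RPL11A* averaged 15.9 ± 2.01 FPKM in the overexpressor, 13.99 ± 0.320 in *glct2* and 11.14 ± 1.73 in wild type. The partner of L11 in that particle, L5, is not among the members. Its gene *RPL5B* rose in the overexpressor by 0.39 and *RPL5A* by 0.29 (adjusted p = 0.0129 and 0.0385), and neither was called in *glct2*.

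*RPL19A*, for L19 near the exit tunnel, had the highest mean level of all members, with 561, 559.7, 480.2 and 449 FPKM in the overexpressor, 459, 459.6, 492 and 452 FPKM in *glct2* and 426, 351, 430.3 and 384 FPKM in wild type. It rose in the overexpressor by 0.36 ± 0.10 (SE, limma adjusted p = 0.0140), and in *glct2* its log2 fold change of 0.23 was not called. The remaining 9 of the 10 most expressed members were *RPS8A*, *RPS23B*, *RPL23A* (*At3g04400*), *RPS16C*, *RPL10A*, *RPL17B*, *ARP1* for L3, *RPSAA* and *RPL37AC*. Of these 9, *RPS23B*, *RPL10A* and *RPSAA* were called higher in the overexpressor and *RPS16C* in *glct2*, with log2 fold changes of 0.34, 0.34, 0.34 and 0.37.

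Among the genes for L4, which lines the exit tunnel, *RPL4D* rose in the overexpressor by 0.31 (limma adjusted p = 0.0419) and *RPL4A* had 0.17 and was not called. All 3 genes for L10, which lies at the peptidyl transferase side, rose in the overexpressor, by 0.34 for *RPL10A*, 0.35 for *RPL10B* and 0.38 for *RPL10C* (limma adjusted p = 0.0226, 0.0231 and 0.0410). Of the 24 alternatives, these calls were lost in 4, 5 and 10, and that of *RPL4D* in 12. For L24, *RPL24B* rose by 0.36 and *RPL24A*, at 0.27, was not called, and for L23a at the tunnel rim *RPL23AB* rose by 0.41 and *RPL23AA*, at 0.29, was not called. None of these was called in *glct2*, where their log2 fold changes were 0.11 to 0.39.

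The stalk, which recruits the elongation factors to the ribosome, had 9 of its 12 genes tested, and 6 were called higher in the overexpressor by limma. *RPP0A*, a weakly expressed gene for the stalk base P0 with 1.88 ± 0.580 FPKM in the overexpressor and 0.956 ± 0.216 in wild type (SD, n = 4 each), rose by 0.54 ± 0.15 (SE, adjusted p = 0.0135). *RPP0B*, the main gene for P0, rose by 0.33, *RPP0C* by 0.40, *RPP1A* by 0.32, *RPP1C* by 0.34 and *RPP3B* by 0.32. *RPP1C* was the one stalk gene called in *glct2*, at 195, 192, 199 and 198 FPKM, against 142, 123, 167 and 139.6 FPKM in wild type, with a log2 fold change of 0.46 ± 0.10 (adjusted p = 0.0318).

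Other members with the highest rises in *glct2* were *RPL41G* (*At3g56020*) at 0.52, *RPL39A* at 0.44 and *RPL23A* (*At1g04480*) at 0.41 (limma adjusted p = 0.0421, 0.0483 and 0.0393). *RPL41G* had 27.8, 24.4, 21.3 and 22.96 FPKM in the overexpressor, 26.1, 28.3, 32.6 and 32.2 FPKM in *glct2* and 21.2, 16.1, 26.03 and 19.5 FPKM in wild type. In the overexpressor its log2 fold change of 0.22 was not called. One of the genes for the ubiquitin fusion L40 (*At2g36170*) was called in *glct2* at 0.36 and the other (*At3g52590*) in the overexpressor at 0.30. Of the 24 alternatives, the *glct2* calls of *RPL41G*, *RPL39A*, *RPL23A* and *At2g36170* were lost in 12, 11, 11 and 10. The *glct2* calls of *RPS18C*, *RPS24A*, *RPS16C* and *RPP1C*, given above, were lost in 11, 10, 12 and 8. The overexpressor call of *At3g52590* was lost in 6.

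The direct comparison named the members in which the overexpressor and *glct2* differed. *RPS15AF* (*At1g07770*), a gene for S15a, had 101, 102, 91.2 and 87.9 FPKM in the overexpressor, 135, 123, 146 and 119 FPKM in *glct2* and 108, 119.8, 112 and 93.7 FPKM in wild type. The overexpressor and *glct2* did not overlap, and wild type overlapped with both. Its log2 fold change was -0.45 ± 0.09 (SE, limma adjusted p = 0.00308) against *glct2*. Against wild type it was -0.18 in the overexpressor and 0.27 in *glct2*, and neither was called.

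*RPS16A* had 45.7, 51.1, 43.1 and 40.2 FPKM in the overexpressor and 54.7, 62.0, 62.0 and 57.5 FPKM in *glct2*, a log2 fold change of -0.39 ± 0.10 (SE, limma adjusted p = 0.00971). In wild type it was 45.3, 37.7, 52.4 and 44.3 FPKM, level with the overexpressor. Against wild type *RPS16A* was called higher in *glct2*, by 0.39 (limma adjusted p = 0.0422), a call lost in 11 of 24 alternatives. *RPL26B* was also lower in the overexpressor than in *glct2*, by -0.39 ± 0.14 (adjusted p = 0.0444), and lost the call in 14 of 24 alternatives.

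Higher in the overexpressor than in *glct2*, beside *RPS9C* and *RPS25B*, were the mitochondrial *RPS10* at 0.32 ± 0.07 (SE, limma adjusted p = 0.00493), *RPS25D* at 0.26, *RPS7A* at 0.20 and *RPP0C* at 0.19 (adjusted p = 0.0415, 0.0360 and 0.0493). *RPS10* had 19.5, 19.3, 20.1 and 17.8 FPKM in the overexpressor, 13.3, 15.1, 15.3 and 17.03 FPKM in *glct2* and 17.6, 16.2, 16.8 and 15.6 FPKM in wild type. The overexpressor libraries lay above the others without overlap. With the replicate number as a block, the call of *RPS25D* was lost (adjusted p = 0.0716). Of the 24 alternatives, *RPP0C* lost the call in 14, *RPS25D* in 10 and *RPS7A* in 8.

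The single member called lower in the overexpressor against wild type was an unnamed gene model similar to L21 (chr1:11228883-11230018). It had 0.931, 0.787, 0.938 and 0.918 FPKM in the overexpressor, 1.01, 2.09, 1.70 and 1.67 FPKM in *glct2* and 2.22, 1.23, 1.82 and 1.75 FPKM in wild type. The log2 fold change was -0.53 ± 0.14 (SE, limma adjusted p = 0.0110) against wild type and -0.45 ± 0.14 (adjusted p = 0.0277) against *glct2*, where the block for the replicate number took the call (adjusted p = 0.0594). The L21 genes *At1g09690*, *At1g57860* and *At1g09590*, at 109 to 194 FPKM in wild type except *At1g57860* at 69.4 FPKM, were called higher in the overexpressor by 0.36, 0.32 and 0.32, and the L21 gene *At1g57660*, at 0.27, was not called.

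Summed over paralogs, all 79 families had a mean above wild type in both genotypes. The ratio to wild type ran from 1.05 for S15a to 1.37 for L7a in the overexpressor, with a median of 1.19. In *glct2* it ran from 1.07 for P2 to 1.36 for L14, with a median of 1.22. The P2 sum held 2 genes, 1 of them tested, at a mean of 7.54 FPKM in wild type. The stalk gene *At2g27720* was placed in no family and had log2 fold changes of 0.23 in the overexpressor and 0.36 in *glct2*, neither called. L14, L15, L18 and L36a held 1 member each, so that their sums are levels of 1 gene. In *glct2* 67 family sums lay above all wild-type libraries and in the overexpressor 5 did, those of S25, L19, L36, L18 and L7a. Of all single tested genes, 7.5% lay above all wild-type libraries in *glct2* and 15.9% in the overexpressor. The 5 of 79 families in the overexpressor are a smaller share than that. The lowest overexpressor ratios after S15a were 1.07 for L18a and for S28 and 1.08 for L34.

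Within families, the mix of paralogs moved more in the overexpressor than in *glct2* by count. In the 69 families with at least 2 tested genes, 43 of 181 paralog shares did not overlap between overexpressor and wild type, 25 higher and 18 lower, in 24 families. Between *glct2* and wild type 17 shares did not overlap, 8 higher and 9 lower, in 11 families. The levels of all tested genes also separated from wild type more often in the overexpressor. There 15.9% lay above and 18.5% below all wild-type libraries, and 7.5% and 9.43% did so in *glct2*. The difference in counts is thus not particular to the paralog shares. Shares of paralogs in 1 family depend on each other, and whether these counts differ was not tested.

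The families described next were picked for the size of the difference after the shares were seen. For S24, *RPS24A* made up 44.1, 43.7, 42.4 and 41.1% of the message in the overexpressor, 40.0, 39.6, 39.9 and 39.6% in *glct2* and 36.2, 36.8, 37.2 and 37.9% in wild type, and the 3 genotypes did not overlap. For S15a, the gene *At5g59850* made up 47.9 ± 2.72% in the overexpressor, 42.7 ± 2.02% in *glct2* and 41.7 ± 4.75% in wild type, while its sister *At1g07770* went the other way at 42.4, 49.2 and 50.2%. For S13, *RPS13B* made up 52.4 ± 0.604%, 47.1 ± 2.12% and 48.6 ± 0.554% in these genotypes.

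**Figure D5:**
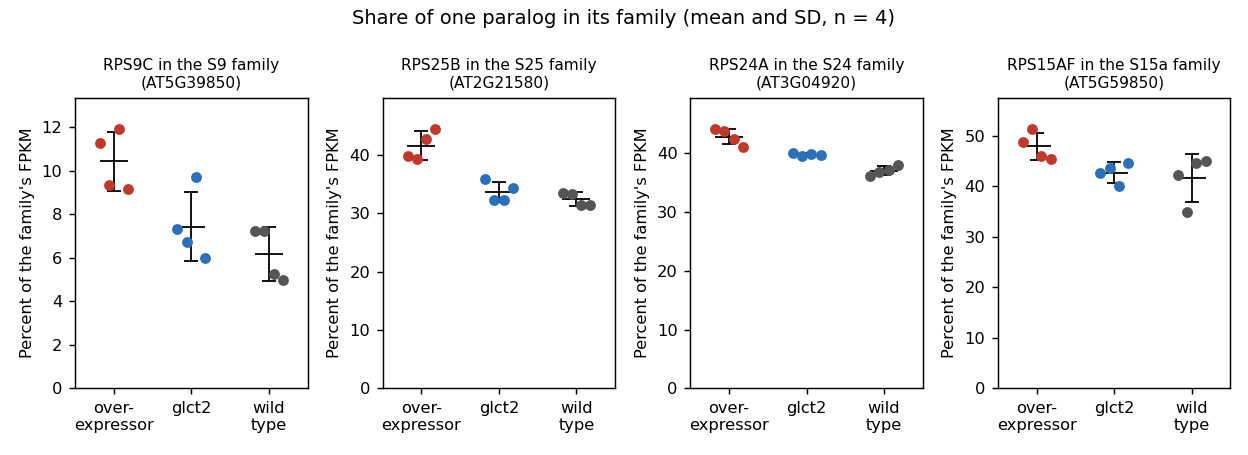
Share of 1 paralog in the summed FPKM of its family, in percent, in each library of the overexpressor, *glct2* and wild type, with points for libraries and bars for mean and SD (n = 4). *RPS25B* made up 41.6% of the S25 message in the overexpressor and 32.4% in wild type, and *RPS24A* falls into 3 separate levels.

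The counts for genes around the ribosome stand beside 18.7% of all tested genes called higher and 19.9% called lower in the overexpressor, and 1.95% and 2.62% in *glct2*. Of 22 nucleolar and assembly factors, which make and modify ribosomal RNA and join it with the proteins, 17 were called higher in the overexpressor and none lower by limma, also at an unadjusted p under 0.05 and by limma voom, with a median log2 fold change of 0.41. The fibrillarin genes *FIB2* and *FIB1*, for the methylase of ribosomal RNA, rose by 0.71 and 0.53, the nucleolin *NUC1* by 0.68 and *NOP10*, a part of the pseudouridine enzyme, by 0.60 (adjusted p = 0.00407, 0.000291, 0.000161 and 0.000433). *NUC1* averaged 189 ± 23.4 FPKM in the overexpressor, 138 ± 4.51 in *glct2* and 117 ± 10.3 in wild type (SD, n = 4 each). In *glct2* 2 of the 22, *GAR1* at 0.41 and *FIB1* at 0.32, were called higher and the median was 0.24.

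Of 14 elongation factors, 6 were called higher and *eEF1Bbeta2* at -0.29 lower in the overexpressor, led by *eEF1Balpha1* at 0.64, *ELF5A-3* at 0.46 and *ELF5A-1* at 0.41, and none was called in *glct2*, with 3 higher at an unadjusted p under 0.05 and none by limma voom. Among the 6 were 3 copies of eEF1A, which are nearly identical in sequence, so that their reads may be shared. The median log2 fold change of the elongation factors was 0.20 in the overexpressor and 0.10 in *glct2*. Of 19 initiation factors, *eIF3I* at 0.19 was called higher and *eIFiso4G1* at -0.19 lower in the overexpressor, and *eIF4G* lower at -0.30 in *glct2*. The medians of the initiation factors were 0.08 in the overexpressor and 0.07 in *glct2*.

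Of 8 genes of the TOR pathway, the S6 kinase *S6K2* was called lower in the overexpressor, with 6.14 ± 1.05 FPKM there and 10.5 ± 2.52 FPKM in wild type (SD, n = 4 each) and a log2 fold change of -0.68 (limma adjusted p = 0.00905). This 1 call of 8 is no larger a share than that of all tested genes called lower. *TOR* itself was called lower in *glct2* at -0.33 (adjusted p = 0.0369). Among 6 genes for proteins known to bind site II, telo box or related promoter elements or to respond to ribosome faults, *PURA1* was lower in both genotypes, at -0.60 and -0.27 (adjusted p = 1.18e-05 and 0.0248), and *TRB3* was higher in the overexpressor at 0.29.

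Other cell types were looked at through their markers. The summed level of 13 markers of dividing cells and shoot meristem was 64.8 to 84.2 FPKM in the overexpressor, 70.2 to 82.1 in *glct2* and 66.3 to 79.7 in wild type, and none of the 12 tested was called by limma or limma voom in either genotype, with 1 lower in the overexpressor at an unadjusted p under 0.05. Of the 5 mesophyll markers, 4 were called lower in the overexpressor by limma, for instance *LHCB2.1* of the light-harvesting complex at -2.13 and *RCA* at -0.84, and *LHCB2.1* was called in *glct2* at -0.96. The 50 genes with the most reads took 12.1 to 12.5% of the reads in the overexpressor, 12.6 to 15.1% in *glct2* and 15.4 to 18.2% in wild type. The summed level of 4 markers of guard cells and trichomes was 18.3 to 24.9 FPKM in the overexpressor, 19.5 to 24.7 in *glct2* and 22.7 to 25.4 in wild type. The part of these differences in the level of the members was not tested.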

How the data were processed

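Leaf messenger RNA of 12 libraries was studied. Per the labels and the study's methods, directional libraries were prepared and sequenced by a service provider, and HISAT2 2.0.5 and StringTie 1.3.3, with fastp and the build TAIR10, appear in the submitters' processing notes. The deposited values are FPKM, computed by the authors from reads, the gene length in the table and a library size. The counting program and its use of strand are not given in the sources used here. The 3 columns of group means equal the means of the libraries and were not used.

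FPKM times gene length gave whole multiples of 1 step, within 0.01 of a step, for 100% of the values, taken as recovered reads. Genes were kept where 4 or more libraries reached 1 FPKM, and these 18354 entered the test on log2(FPKM + 1), which understates the change of low genes, with limma 3.58.1 (R 4.3.3), 1 model over the 3 genotypes, 9 residual degrees of freedom and Benjamini-Hochberg adjustment at 0.05. The script was tested on simulated data. The study's methods state no test. Motifs were counted in RefSeq TAIR10.1 windows from 250 bases before to 50 after the start. Tables were made with pandas 2.3.3 and figures with matplotlib 3.10.9.

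Replicate numbers were checked for pairing. Deviations of same-numbered overexpressor and *glct2* libraries correlated weakly in all 4 pairs (r = 0.184, 0.151, 0.143 and 0.119, across genes, which are not independent). Between same-numbered libraries of wild type and the other genotypes the signs were mixed. Some libraries with unlike numbers correlated more, such as *glct2* library 3 and wild-type library 1 (r = 0.351). The labels do not say what a number marks. The main fit therefore used no pairing, and the number entered as a block only in an alternative.

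Named members are, per comparison, up to 8 of the highest rises and falls among called members without overlap, the 10 highest levels, S5, S6, S18, ubiquitin fusions, L4, L5, L10, L23a, L24 and the stalk, paralogs called in opposite directions, and up to 3 or 2 called genes per surrounding list. All 10 members called between the overexpressor and *glct2*, and family sisters, are named beside them. The rule for the members reads only the descriptions. This rule, the named members and the lists were set with earlier results of these data known. Alternatives were other pseudocounts, filters and scalings, a replicate block, 2 genotypes alone, library weights, limma voom on recovered reads with trimmed-mean (TMM) factors computed directly, and leaving out each library.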

Additional observations from a re-analysis of the deposited data

Results flagged for a closer look

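Among 180 groups of 4 libraries of the named members and their sums, 8 held a library apart from the other 3 by Dixon's test, and chance alone gives about 1 in 20. In 7 of the 8 this library was *glct2* library 3. It was high in the summed level of all members (25816 FPKM, against 24357 to 24506 in the other *glct2* libraries), in that of the 60S members (14010 FPKM, against 13036 to 13122), in *RPL23A* (*At3g04400*, 450 FPKM, against 379.7 to 391), in *RPS16C* (403 FPKM, against 348 to 351) and in *RPL23AA* (127 FPKM, against 117 to 118). It was low in *RPSAA* (286 FPKM, against 297 to 299.6) and in *RPP3A* (45.1 FPKM, against 49.4 to 50.0). The eighth was the unnamed L21-like model in overexpressor library 2, at 0.787 FPKM, against 0.918 to 0.938 in the other overexpressor libraries.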

How the results depend on the processing

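Each count was repeated under 24 alternatives. The 81 members higher in the overexpressor than in wild type became 154 with the values rescaled to the recovered reads, 44 with both genotypes fitted alone and 40 to 120 with 1 library left out, and the 1 lower member was not tested with a filter at 5 FPKM (count 0). The 23 members higher in *glct2* became 9 with no filter, 113 with the rescaling to reads, 5 with the replicate number as a block, 38 with both genotypes alone, 60 with library weights and 1 to 48 with 1 library left out. Between the overexpressor and *glct2*, the 6 higher members became 3 with these genotypes alone, 11 with library weights and 3 to 11 with 1 library left out, and the 4 lower ones 2 to 5. The causes were not tested.

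The rescaling to reads moved the median of all tested genes to 0.12 in the overexpressor and 0.10 in *glct2* against wild type, and that of the members to 0.38 and 0.39, so that the members lay 0.26 and 0.30 above all genes. Under it 5788 genes were called higher and 2436 lower in the overexpressor (3441 and 3646 without it), and 1279 and 242 in *glct2* (357 and 481 without it). Over all 24 alternatives the median of the members ran from 0.18 to 0.38 in the overexpressor and from 0.23 to 0.39 in *glct2*. With the replicate block 73 members were higher and 1 lower in the overexpressor against wild type, and 5 and 4 against *glct2*. What a replicate number marks is not given by the labels. Of the named members called, 19 of 33 in the overexpressor, 1 of 13 in *glct2* and 5 of 10 between them were called in every alternative, and no named result reversed. With the 50 highest genes left out of the scaling the medians of the members were 0.29 and 0.32. Limma voom called 89 members higher in the overexpressor and 30 in *glct2*. Reads shared between near-identical paralogs limit the values of single genes.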
